A study of Homo sapiens with 9 samples.

Results

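The 10 histone genes described here make messenger RNA that is seen in libraries selected for poly-A tails. They were chosen by name, as linker, H2A, H2B and replacement histone genes, and their Ensembl identifiers were matched to GENCODE 29 symbols among the 58734 genes of the count table. All 10 were found, and all 10 passed the filter on low counts. They are the linker histone genes H1F0, H1FX and HIST1H1C, the H2B genes HIST2H2BE, HIST1H2BK and HIST1H2BD, the H2A gene HIST1H2AC, and the variant genes H2AFZ, H2AFX and H3F3B.

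The cells were HEK293T, an established line derived from human embryonic kidney that carries SV40 large T antigen. They were transfected for 36 h with 10 nM siRNA against SIN3A, with siRNA against SIN3B, or with a control siRNA, all with Lipofectamine RNAiMAX, and each group has 3 libraries. SIN3A and SIN3B are related scaffold proteins of histone deacetylase complexes. The knockdowns were transient and partial, and the labels do not say whether the libraries of a group came from separate transfections, so p-values speak only to the scatter among the libraries at hand, part or all of which could be technical.

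Histones are the proteins around which DNA is wound, and linker histones bind where the DNA enters and leaves that unit. Most H2A, H2B, H3 and H4 genes are expressed in S phase from gene clusters, and their messages end in a stem-loop in place of a poly-A tail. Replacement histone genes lie outside the clusters, are expressed throughout the cell cycle and make messages with ordinary poly-A tails, and some cluster genes can also make a polyadenylated message that runs past the stem-loop.

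Both knockdowns could be seen in the targeted genes. SIN3A averaged 47.3 ± 2.51 CPM (SD, n = 3) in SIN3A knockdown libraries and 146 ± 4.01 CPM in control libraries, where CPM is a count divided by the library total and TMM factor. SIN3B averaged 55.1 ± 3.63 CPM in SIN3B knockdown libraries and 96.2 ± 4.71 CPM in control libraries, so it was left at 57.3% of control in the fit. Library totals ran from 22542798 to 27084884 counts, and at least 98% of the nonzero counts in each library were multiples of 4, as were 89 of the 90 values of the histone genes. The 8 HEK293T markers were found in all 9 libraries, while PTPRC, CD3E, CDH5, TP63 and COL1A2, which mark other cell types, had no count. SIN3A knockdown replicate 1 stood apart from its group: it had the highest value of the 3 libraries in 8 of the 10 histone genes, and the lowest quality weight of the 9 libraries in limma voom, at 0.404. Results that change without it are given with and without it.

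The stem-loop that ends a cluster histone message is shown first, for the 4 genes in which it was found. Capitals mark the 16-base match to the stem-loop consensus, read from GENCODE 29 transcripts on GRCh38, on the strand of each gene.
HIST2H2BE: caaaGGCTCTTTTCAGAGCCaccca
HIST1H2AC: caaaGGCTCTTTTCAGAGCCcccct
HIST1H2BD: caaaGGCTCTTTTAAGAGCCacgca
H2AFX: caaaGGCCCTTTTAAGGGCCaccac
These lie at chr1:149886183-149886207 (minus strand), chr6:26124665-26124689 (plus), chr6:26158583-26158607 (plus) and chr11:119094893-119094917 (minus). The match begins 56, 43, 36 and 49 bases after the stop codon, in the order listed, all in the 3′ UTR. Searched over whole coding transcripts, not the 3′ UTR alone, 36 of 19684 coding genes hold a match, and 33 of these are among the 92 histone genes. A stem-loop beyond an annotated transcript end is missed, so 33 is not a count of all histone genes with a stem-loop. In HIST2H2BE the annotated message continues for 1729 bases beyond the stem-loop, and in H2AFX for 1044 bases. HIST1H2BD has a short transcript that holds the stem-loop and ends 39 bases after it, and a spliced transcript of 789 bases without it. HIST1H2AC has a spliced transcript with the stem-loop and another without it. HIST1H1C and HIST1H2BK have no annotated 3′ UTR, so the search could not apply to these 2 cluster genes and says nothing about them.

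The end of the annotated transcript, with the poly-A signal AATAAA in capitals, shows which messages carry the signal for a tail. The signal was found in the last 30 bases of the longest coding transcript of 7 genes, of which 4 are printed to set cluster genes beside replacement genes.
HIST2H2BE: gttattAATAAAgttaccaattaatttaaa
HIST1H2AC: agcctggcatgaggtAATAAAaggtaatgc
H2AFZ: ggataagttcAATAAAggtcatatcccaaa
H3F3B: atgagactaaAATAAAatttttgaagttaa
These are chr1:149884459-149884488 (minus strand), chr6:26139073-26139102 (plus), chr4:99948088-99948117 (minus) and chr17:75776434-75776463 (minus) on GRCh38. The other genes with the signal were H1F0, H1FX and HIST1H2BD. HIST1H1C and HIST1H2BK are annotated as their coding sequence alone, of 642 and 381 bases, so reads beyond the stop codon were not counted for them if the same annotation was used. H2AFX had no AATAAA in its last 30 bases, which says only that these letters are not in that window.

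**Figure D1:**
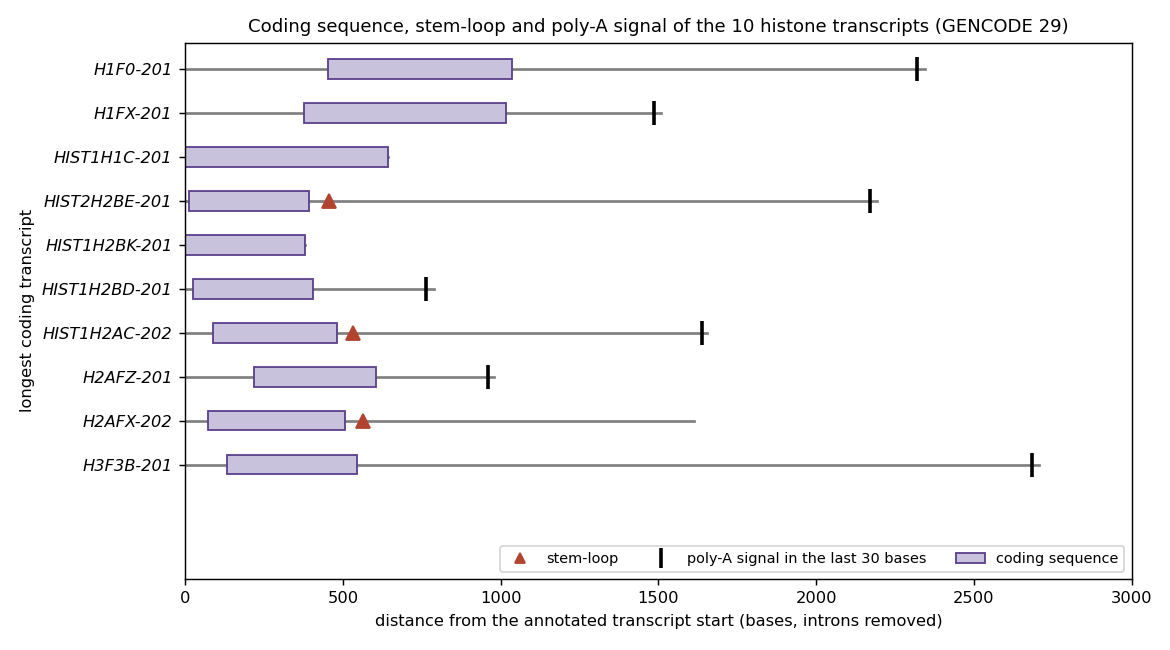
The longest coding transcript of each histone gene is drawn from its annotated start, with introns removed, on an axis in bases. Boxes are coding sequence, triangles the stem-loop and ticks the poly-A signal. HIST2H2BE, HIST1H2AC and H2AFX continue for 1729, 1114 and 1044 bases past the stem-loop, and HIST1H1C and HIST1H2BK have no annotated 3′ UTR.

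The level per kilobase was taken over all annotated exons of a gene joined together, so it sets genes against each other only roughly. For H3F3B these exons come to 6134 bases, against 2705 in its longest coding transcript. For H2AFZ they come to 2303 bases, against 979. The values per kilobase of these genes depend on the length used, and so does the place of H3F3B in the order. In control libraries the replacement and variant genes and 2 linker genes led: H2AFZ stood at 144.5 ± 3.19 CPM per kilobase, H1F0 at 122 ± 6.60, H2AFX at 119 ± 1.51, H1FX at 104 ± 9.65 and H3F3B at 75.7 ± 0.763 (SD, n = 3). Among the cluster genes HIST1H2BK stood at 29.1 ± 2.57 CPM per kilobase, HIST1H1C at 14.9 ± 1.122, HIST1H2BD at 4.23 ± 0.422, HIST2H2BE at 2.20 ± 0.429 and HIST1H2AC at 1.66 ± 0.163. The first 2 of these cluster genes are counted over coding sequence alone, so their values per kilobase are not on the same footing as the rest. The control libraries of H1F0 and H2AFX overlapped, and those of every other pair of neighbours in this order were apart. Over these exon lengths the order changed in both knockdowns, where H3F3B came before H1FX and HIST1H2AC before HIST2H2BE. The change of H3F3B and H1FX depends on the length used for H3F3B. The libraries of these H2A and H2B genes overlapped in each knockdown, and those of H3F3B and H1FX overlapped in SIN3A knockdown cells.

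**Figure D2:**
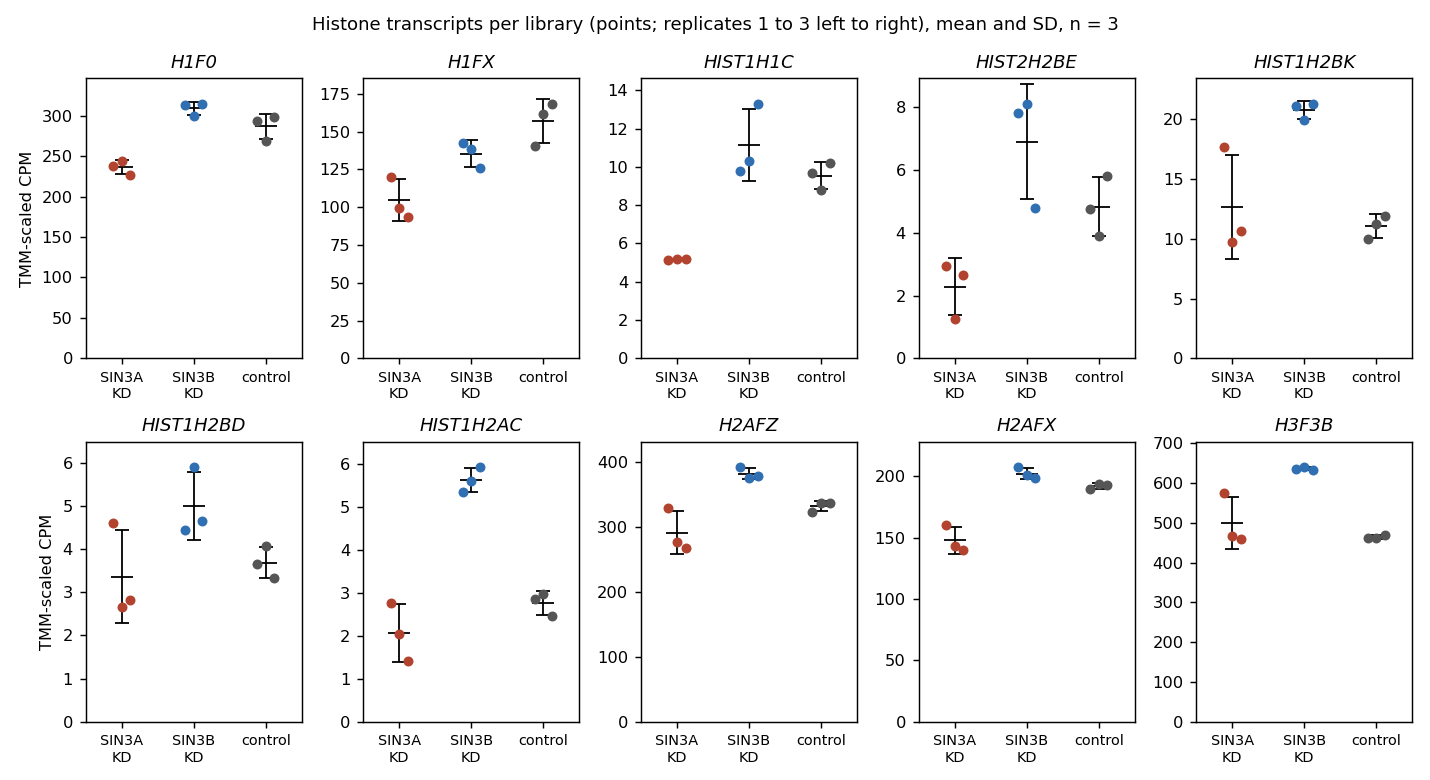
TMM-scaled CPM of the 10 histone genes in each library, with SIN3A knockdown, SIN3B knockdown and control from left to right in every panel. Points are libraries, the long tick is the mean and the bar the SD (n = 3), and each axis starts at 0. HIST1H1C lies at 5.15 to 5.17 CPM in SIN3A knockdown libraries, below all others, and H3F3B at 634 to 640 CPM in SIN3B knockdown libraries, above all others.

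In SIN3A knockdown cells 5 of the 10 histone genes fell against control, and these were the 3 linker genes, HIST2H2BE and H2AFX. The falls ran from 0.28 to 1.08 on the log2 scale, and the remaining 5 genes had values in both directions that did not pass the test. Of all 16686 genes tested, 10.8% fell and 12% rose in this comparison, 22.7% in all, by edgeR's quasi-likelihood test at a Benjamini-Hochberg adjusted p under 0.05. With upper-quartile factors in place of TMM the split over all genes was 1340 rises and 2298 falls, against 1997 and 1794. None of the 10 histone genes rose by edgeR, by edgeR at an unadjusted p under 0.05 or by DESeq2. The median log2 fold change was -0.33 over the 10 genes and -0.00155 over all genes tested. In bulk RNA, fewer cells that express a gene and less RNA per cell cannot be told apart.

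HIST1H1C, which encodes linker histone H1.2 (chr6:26055787-26056428, minus strand), had 5.15, 5.17 and 5.17 CPM in SIN3A knockdown libraries, against 9.70, 8.77 and 10.2 CPM in control libraries. All SIN3A knockdown libraries lay below all controls. The log2 fold change was -0.89 ± 0.16 (SE; edgeR adjusted p = 0.000799), and -0.55 with limma on log2(FPKM + 1), where it also passed. H1FX, the gene of linker histone H1.10 (chr3:129314771-129316277, minus strand), had 120, 99.7 and 93.9 CPM in SIN3A knockdown libraries, against 141, 162 and 168 CPM in control libraries. These groups did not overlap either (log2 -0.59 ± 0.09, edgeR adjusted p = 0.000205). H1FX shares 345 bases with the antisense gene H1FX-AS1, which averaged 7.16 CPM, and whether counting used strand is not given in the sources used here, so its value is uncertain to that extent.

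H1F0, the gene of linker histone H1.0, which accumulates in cells that stop dividing (chr22:37805093-37807436, plus strand), had 238, 244 and 227 CPM in SIN3A knockdown libraries, against 293, 269 and 298 CPM in control libraries. The fall was small but larger than the spread, and the groups were apart. On the log2 scale it came to -0.28 ± 0.07 (edgeR adjusted p = 0.00459), and the call was lost with limma on log2(FPKM + 0.1), at an adjusted p of 0.0547.

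H2AFX encodes H2A.X, which is phosphorylated at DNA double-strand breaks (chr11:119093854-119095467, minus strand). It had 161, 143 and 140 CPM in SIN3A knockdown libraries, against 189, 194 and 193 CPM in control libraries. The 3 control libraries were close together and all above the knockdown libraries. The log2 fold change was -0.38 ± 0.07 (edgeR adjusted p = 0.000797).

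HIST2H2BE, an H2B gene with a long 3′ UTR (chr1:149884459-149886652, minus strand), had 2.94, 1.25 and 2.66 CPM in SIN3A knockdown libraries, against 4.77, 3.91 and 5.80 CPM in control libraries. The groups were apart, but the highest knockdown and lowest control libraries were near each other. The difference was -1.08 ± 0.29 on the log2 scale (edgeR adjusted p = 0.0119), the largest fall of the 10 genes in size. The call was lost without control replicate 3 (adjusted p = 0.0677) and without SIN3A knockdown replicate 2 (adjusted p = 0.0504). It was also lost with limma on log2(FPKM + 0.1) and log2(FPKM + 1), at adjusted p values of 0.0955 and 0.0678. Of its 50-base stretches, 8.11% are shared with other H2B genes such as HIST2H2BF.

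Among the genes that did not pass, H2AFZ, the gene of the variant H2A.Z found at promoters, had 330, 276.5 and 268 CPM in SIN3A knockdown libraries, against 324, 337 and 337 CPM in control libraries. Replicate 1 of the knockdown lay inside the control range and the other libraries below it. The log2 value was -0.19 ± 0.07 (edgeR adjusted p = 0.0718), and without SIN3A knockdown replicate 1 it was -0.27 (adjusted p = 0.000774). H3F3B had 574, 466 and 458.5 CPM in SIN3A knockdown libraries, against 461, 462 and 470 CPM in control libraries, and the groups overlapped. HIST1H2BK had 17.7, 9.70 and 10.7 CPM, against 10.0, 11.3 and 11.9 CPM in control libraries, and its log2 value of 0.19 became -0.10 without SIN3A knockdown replicate 1, neither of which passed the test. HIST1H2BD had 4.60, 2.66 and 2.82 CPM in SIN3A knockdown libraries, against 3.66, 4.07 and 3.34 CPM in control libraries. Both HIST1H2BD and HIST1H2AC had overlapping groups. Their values did not pass (HIST1H2AC log2 -0.43 ± 0.27, adjusted p = 0.280, and HIST1H2BD -0.14 ± 0.25, adjusted p = 0.742). All knockdown libraries lay below all controls in 5 of the 10 genes and above them in none, where 18.5% of all genes tested lay below and 17.9% above.

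In SIN3B knockdown cells 3 of the 10 histone genes rose against control, HIST1H2AC, HIST1H2BK and H3F3B, by 0.45 to 1.02 on the log2 scale. Of all genes tested, 12% rose and 11.6% fell, 23.6% in all. With upper-quartile factors the split over all genes was 1688 rises and 2282 falls, against 2005 and 1929. None of the 10 fell by edgeR or by DESeq2, and H1FX alone was lower at an unadjusted p under 0.05. The median log2 fold change was 0.33 over the 10 genes and -0.02 over all genes tested. All SIN3B knockdown libraries lay above all controls in 7 of the 10 genes and below them in none, where 20.9% of all genes tested lay above and 22.1% below. Because the control libraries are shared with the comparison above, both sets of values stand side by side and are not independent results.

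HIST1H2AC, which encodes an H2A protein (chr6:26124145-26139116, plus strand), had 5.36, 5.602 and 5.92 CPM in SIN3B knockdown libraries, against 2.86, 2.98 and 2.46 CPM in control libraries. The knockdown libraries all lay far above the controls. The log2 fold change was 1.02 ± 0.26 (edgeR adjusted p = 0.00637), a 2.03-fold rise.

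HIST1H2BK, an H2B gene (chr6:27146418-27146798, minus strand), had 21.1, 19.9 and 21.3 CPM in SIN3B knockdown libraries, against 10.0, 11.3 and 11.9 CPM in control libraries. The groups were well separated (log2 0.91 ± 0.17, edgeR adjusted p = 0.000858). Of its 50-base stretches, 74.1% occur unchanged in other genes, H2BFS, HIST1H2BE and HIST1H2BO among them. Reads wholly within shared sequence cannot be assigned by sequence alone, and how this affects its count was not tested.

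H3F3B, 1 of the genes of the replacement histone H3.3 (chr17:75776434-75785893, minus strand), had 634, 639.5 and 634 CPM in SIN3B knockdown libraries, against 461, 462 and 470 CPM in control libraries. Both groups were tight and apart. The log2 fold change was 0.45 ± 0.08 (edgeR adjusted p = 0.000246). It overlaps UNK by 214 bases on the opposite strand, and UNK averaged 75.8 CPM.

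H2AFZ had 393, 376 and 379 CPM in SIN3B knockdown libraries, against 324, 337 and 337 CPM in control libraries. The groups did not overlap, but the log2 value of 0.20 ± 0.07 missed the threshold (edgeR adjusted p = 0.0542), and it passed in 8 of 20 alternative settings, among them without SIN3A knockdown replicate 1 (adjusted p = 0.00142) and without SIN3A knockdown replicate 3 (adjusted p = 0.0293). H1FX had 142, 139 and 126 CPM in SIN3B knockdown libraries, against 141, 162 and 168 CPM in control libraries, and the groups overlapped (log2 -0.21 ± 0.09, adjusted p = 0.109). H1F0 averaged 309 ± 8.25 CPM in SIN3B knockdown libraries and 287 ± 15.5 CPM in control libraries, and H2AFX averaged 202 ± 4.68 CPM in SIN3B knockdown libraries and 192 ± 2.44 CPM in control libraries. In both genes the lowest SIN3B knockdown library lay just above the highest control library. HIST2H2BE (0.52 ± 0.27, adjusted p = 0.193), HIST1H2BD (0.44 ± 0.25, adjusted p = 0.230), HIST1H1C (0.22 ± 0.16, adjusted p = 0.357), H1F0 (0.11 ± 0.07, adjusted p = 0.271) and H2AFX (0.07 ± 0.07, adjusted p = 0.503) did not pass. Without SIN3A knockdown replicate 1 in the shared estimate of the spread, 5 genes passed, with H2AFZ higher and H1FX lower added (adjusted p = 0.0352 for H1FX).

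**Figure D3:**
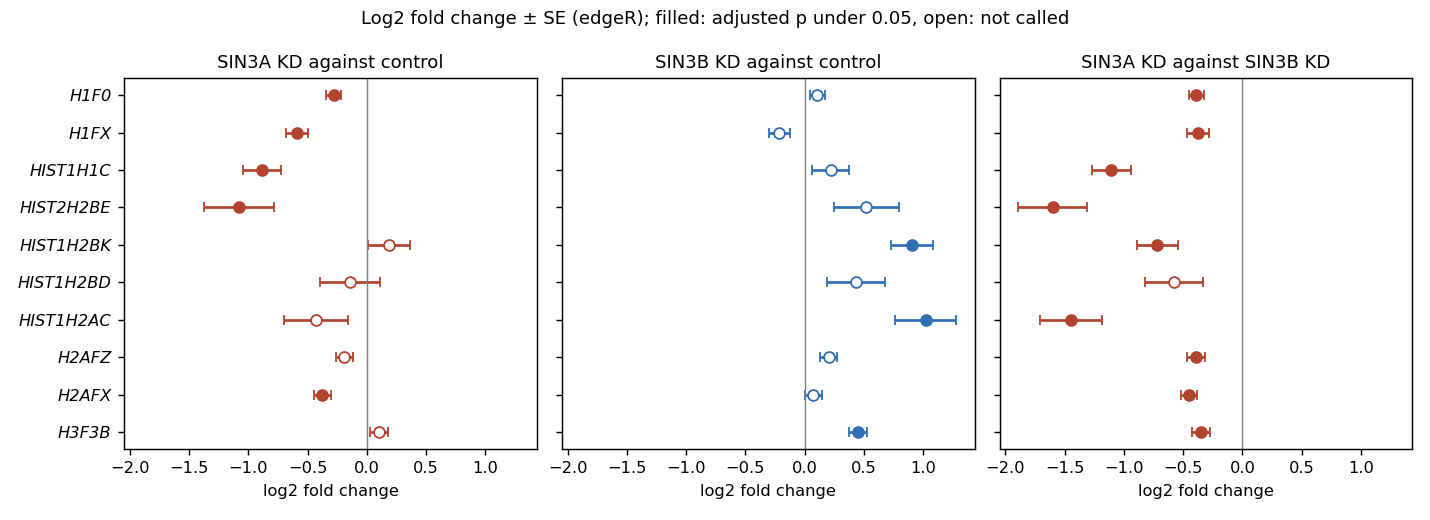
Log2 fold change of the 10 histone genes in the 3 comparisons, with the standard error of the edgeR fit. Filled circles have an adjusted p under 0.05. The SIN3A knockdown against control panel has 5 filled circles, all below 0, the SIN3B knockdown against control panel 3, all above 0, and the panel of SIN3A against SIN3B knockdown 9, all below 0.

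Set directly against each other, SIN3A knockdown cells had less of 9 of the 10 histone messages than SIN3B knockdown cells. Of all genes tested, 27.1% were called, 12.6% lower and 14.4% higher. With upper-quartile factors the split over all genes was 2418 lower and 2165 higher, against 2109 and 2408. Each of the 9 genes had all SIN3A knockdown libraries below all SIN3B knockdown libraries, and none the other way round, where 19.5% of all genes tested lay below and 19.8% above. The median log2 fold change was -0.51 over the 10 genes and -0.02 over all genes tested. None of the 10 was higher by edgeR, at an unadjusted p under 0.05 or by DESeq2. This comparison uses the same knockdown libraries and fit as those against control, so its counts are not independent of theirs.

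The cluster genes showed the largest differences. HIST2H2BE had 2.94, 1.25 and 2.66 CPM in SIN3A knockdown libraries, against 7.81, 8.11 and 4.80 CPM in SIN3B knockdown libraries, with log2 at -1.60 ± 0.29 (edgeR adjusted p = 0.000375). SIN3B knockdown replicate 3 was lower than the others but still above every SIN3A knockdown library. HIST1H2AC had 2.76, 2.04 and 1.41 CPM in SIN3A knockdown libraries, against 5.36, 5.602 and 5.92 CPM in SIN3B knockdown libraries (log2 -1.45 ± 0.26, edgeR adjusted p = 0.000370). HIST1H1C had 5.15, 5.17 and 5.17 CPM in SIN3A knockdown libraries, against 9.80, 10.3 and 13.3 CPM in SIN3B knockdown libraries (log2 -1.11 ± 0.16, edgeR adjusted p = 4.89e-05), and -0.70 with limma on log2(FPKM + 1). HIST1H2BK was lower by a log2 value of -0.72 ± 0.17 (edgeR adjusted p = 0.00413). HIST1H2BD had 4.60, 2.66 and 2.82 CPM, against 4.44, 5.90 and 4.64 CPM in SIN3B knockdown libraries. Its groups overlapped through replicate 1 of the SIN3A knockdown (log2 -0.58 ± 0.25, adjusted p = 0.0938), and without that library it passed (log2 -0.86, adjusted p = 0.0157).

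The genes outside the clusters differed by less on the log2 scale. H2AFX was lower in SIN3A knockdown cells by a log2 value of -0.45 ± 0.07 (edgeR adjusted p = 7.93e-05), H2AFZ by -0.39 ± 0.07 (adjusted p = 0.000550) and H1F0 by -0.39 ± 0.07 (adjusted p = 0.000195). H1FX gave -0.37 ± 0.09 (adjusted p = 0.00520) and H3F3B -0.35 ± 0.07 (adjusted p = 0.00176). With limma on log2(FPKM + 0.1) the calls of H1FX (adjusted p = 0.0846), HIST1H2BK (0.0589) and H3F3B (0.0541) were lost, and that of H1FX also with log2(FPKM + 1) (0.0635). No test was made between the cluster genes and the others.

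The 5 cluster genes summed to 20.8 to 33.1 CPM in SIN3A knockdown libraries, 48.5 to 49.9 CPM in SIN3B knockdown libraries and 31.0 to 33.7 CPM in control libraries. The SIN3A knockdown sum overlapped the controls through replicate 1. The other 66 cluster histone genes summed to 26.2 to 31.5 CPM in SIN3A knockdown libraries, 45.8 to 49.97 CPM in SIN3B knockdown libraries and 34.7 to 44.96 CPM in control libraries, with no overlap between groups. RNAs that lack a poly-A tail were listed as a rough sign of what escaped the selection. Their counts were nearly all from RN7SL2, with 7 of the 9 listed at 0 in every library, so the sign is weak. These RNAs summed to 2.66 to 4.05 CPM in SIN3A knockdown libraries, 1.33 to 2.88 CPM in SIN3B knockdown libraries and 2.70 to 2.99 CPM in control libraries. Their part in the result was not tested.

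Beyond the 10, 82 other histone genes were in the annotation and 25 passed the filter. In the SIN3A against the SIN3B knockdown, 6 of the 25 fell and none rose, where 12.6% of all genes tested fell and 14.4% rose, with a median log2 fold change of -0.53. They were the cluster genes HIST1H2AG (log2 -1.45 ± 0.41), HIST1H2BJ (-1.11 ± 0.28), HIST3H2BB (-1.09 ± 0.33) and HIST3H2A (-0.93 ± 0.19), the centromeric H3 gene CENPA (-0.55 ± 0.12) and H3F3A (-0.27 ± 0.08), the other H3.3 gene. At an unadjusted p under 0.05, 7 were lower and none higher, and DESeq2 called the same number as edgeR, 6 and 0. HIST3H2BB and H3F3A lost their calls without SIN3A knockdown replicate 3 (adjusted p = 0.0598 and 0.0584) and without SIN3B knockdown replicate 3 (0.0766 and 0.0712), and HIST1H2AG without SIN3B knockdown replicate 2 (0.0756). With limma on log2(FPKM + 0.1) the calls of H3F3A (adjusted p = 0.0867), HIST1H2AG (0.0797) and HIST3H2BB (0.0515) were lost. Limma on log2(FPKM + 1) lost those of H3F3A (adjusted p = 0.0681) and HIST1H2AG (0.0725, log2 -0.48). Against control, 2 of the 25 fell in SIN3A knockdown cells, where 10.8% of all genes tested fell, so the count was near the background. They were HIST3H2A (-0.82 ± 0.19, edgeR adjusted p = 0.00370) and HIST1H3E (-0.81 ± 0.27, edgeR adjusted p = 0.0386), and DESeq2 called HIST3H2A alone. Neither passed with limma on log2(FPKM + 0.1) (adjusted p = 0.0582 for HIST3H2A and 0.109 for HIST1H3E). With log2(FPKM + 1) HIST1H3E did not pass (adjusted p = 0.135). HIST1H3E also lost its call when any of 6 libraries was left out, SIN3A knockdown replicate 2 (adjusted p = 0.145) or 3 (0.0560), SIN3B knockdown replicate 2 (0.0503) or 3 (0.0503), or control replicate 1 (0.125) or 2 (0.145). In SIN3B knockdown cells against control, neither edgeR nor DESeq2 called any of the 25, and CENPA and H3F3A were higher at an unadjusted p under 0.05. Of the 92 histone genes in all, 29 had no count in any library.

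**Figure D4:**
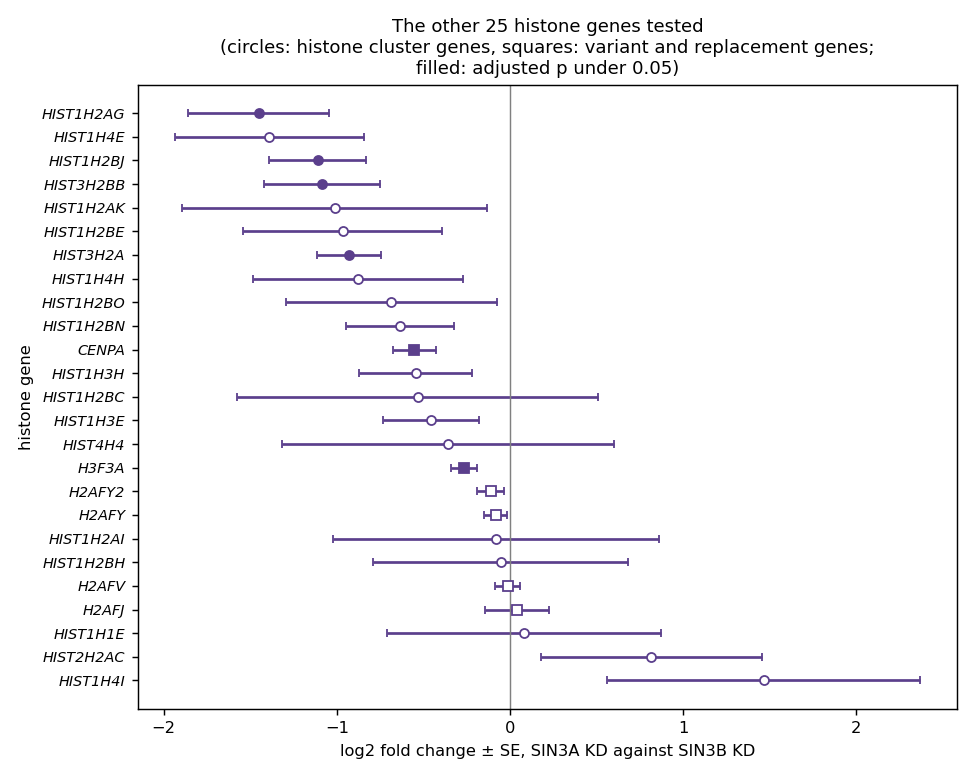
Log2 fold change with standard error of the other 25 histone genes tested, SIN3A knockdown against SIN3B knockdown. Circles are cluster genes, squares variant and replacement genes, and filled symbols have an adjusted p under 0.05. The 6 filled symbols lie below 0, and 21 of the 25 values are negative.

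RefSeq promoters (GRCh38.p14, 250 bases before to 50 after the start) were available for 9 of the 10 genes. The octamer motif, ATTTGCAT or its reverse complement ATGCAAAT, was in 4 of the 9, against 1.80% of 27305 promoters. The motif is known from some cluster histone promoters and was chosen with earlier results known, so these counts are not a test. The 4 hold all 3 genes that rose in SIN3B knockdown cells, and HIST2H2BE, which was not called there (edgeR adjusted p = 0.193). Their sequences are printed, 30 bases each on the gene's strand, with the octamer and any TATAAA in capitals.
HIST1H2AC: agctATGCAAATgaggtatgaaagtacagc
HIST1H2BK: ccttATTTGCATgagaggtcctaTATAAAa
HIST2H2BE: cctaATTTGCATaaggtggtTATAAAagaa
H3F3B: gtgtATGCAAATaagggttctatgacgcag
They lie at chr6:26124038-26124067 (plus strand), chr6:27146879-27146908 (minus), chr1:149886703-149886732 (minus) and chr17:75779830-75779859 (minus). The octamer begins 130 bases before the start in HIST1H2AC, 46 in HIST1H2BK, 46 in HIST2H2BE and 76 in H3F3B. Over all tested genes with a promoter, 12.8% of the 156 that hold the octamer rose in SIN3B knockdown cells, against 13.9% of all 11779, and 17.3% of those with the octamer fell, against 12.6% of all. TATAAA or TTTATA was in 8 of the 9 promoters, against 11.95% of all, and TTTCCCGC or GCGGGAAA, an E2F motif, was in none of the 9, against 1.66%. A match is a description of these letters and not of a bound site.

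Among genes listed for histone transcription and 3′ end processing, more rose than fell against control in each knockdown. Of 32 genes of histone transcription and 3′ end processing, 8 rose and 1 fell in SIN3A knockdown cells against control, where 12% of all genes tested rose and 10.8% fell, with a median log2 value of 0.09. PABPN1, a nuclear poly-A binding protein, fell by 0.81 ± 0.07 on the log2 scale, and ERI1, an exonuclease that trims histone messages, rose by 0.47 ± 0.11. In SIN3B knockdown cells against control 8 rose and 1 fell, where 12% of all genes tested rose and 11.6% fell, with a median of 0.09. ERI1 rose by 0.64 ± 0.11 and LSM10, a subunit of the U7 particle that cleaves histone messages, fell by 0.52 ± 0.12. In the SIN3A against the SIN3B knockdown 4 rose and 3 fell, where 14.4% of all genes tested rose and 12.6% fell, led by PABPN1 at -0.96 ± 0.07.

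Of 34 histone chaperone and deposition genes, 7 rose and 3 fell in SIN3A knockdown cells against control, and 7 rose and 5 fell in SIN3B knockdown cells against control. Over all genes tested, 12% rose and 10.8% fell in SIN3A knockdown cells, and 12% rose and 11.6% fell in SIN3B knockdown cells. RBBP4, a histone-binding subunit of the CAF-1 and SIN3 complexes, averaged 238 ± 3.83 CPM in SIN3A knockdown libraries and 364.5 ± 13.01 CPM in control libraries (log2 -0.61 ± 0.06). NASP, a chaperone of H3 and H4 and of linker histones, averaged 601.5 ± 28.5 CPM in SIN3A knockdown libraries and 442 ± 24.8 CPM in control libraries (log2 0.44 ± 0.06). ASF1A, which hands over H3 and H4, averaged 39.3 ± 2.72 CPM in SIN3B knockdown libraries and 23.2 ± 1.97 CPM in control libraries (log2 0.76 ± 0.11). DAXX, a chaperone of H3.3, averaged 69.5 ± 5.37 CPM in SIN3B knockdown libraries and 105 ± 4.09 CPM in control libraries (log2 -0.59 ± 0.08). In the direct comparison 4 rose and 7 fell, where 14.4% of all genes tested rose and 12.6% fell.

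Of 26 S-phase genes, 11 rose and 2 fell in the SIN3A against the SIN3B knockdown, where 14.4% of all genes tested rose and 12.6% fell, with a median log2 value of 0.15, beside -0.51 for the 10 histone genes and -0.02 for all genes tested. CCNE1, the cyclin of S-phase entry, averaged 99.99 ± 4.12 CPM in SIN3A knockdown libraries and 28.1 ± 1.37 CPM in SIN3B knockdown libraries. RRM2, a subunit of ribonucleotide reductase, averaged 148 ± 7.23 CPM in SIN3A knockdown libraries and 66.6 ± 1.09 CPM in SIN3B knockdown libraries. Against control, 4 rose and 1 fell in SIN3A knockdown cells, where 12% of all genes tested rose and 10.8% fell, and 3 rose and 6 fell in SIN3B knockdown cells, where 12% rose and 11.6% fell.

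Among the genes whose pattern was nearest to the mean of the 5 cluster genes were STX7, IMPACT, AGPAT5 and TCHP. Likeness was the root mean square difference of centred log2 levels over the 9 libraries, and it was 0.123, 0.136, 0.139 and 0.144 for these genes in that order, against a median of 0.469 over 10391 genes. The 5 cluster genes lay farther from their own mean, at 0.214 (HIST1H2AC) to 0.352 (HIST2H2BE). The genes named were picked as the nearest of the 10391, so their small values are no test of a link.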

How the data were processed

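RNA was measured in 9 poly-A selected HEK293T libraries. Groups come from the sample titles and source names, since the treatment protocol names the control siRNA for all samples. The authors deposited raw read counts per Ensembl gene and FPKM values; per the submitters' processing notes, Trimmomatic 0.36, HISAT2 2.1.0, HTSeq, GRCh38 and DESeq2 1.20.0 were used, and the counter's version and strand setting are not given in the sources used here.

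Counts were fitted as deposited in edgeR 4.0.16 (R 4.3.3): TMM factors, the filterByExpr filter (minimum count 10, total 15), a single quasi-likelihood fit with 6 residual degrees of freedom over the 9 libraries, and two-sided p-values adjusted by Benjamini-Hochberg over 16686 genes, threshold 0.05. Alternatives were other factors and filters, DESeq2 1.42.0, limma 3.58.1 voom with quality weights, limma on log2 of the deposited FPKM plus 0.1 or 1, 6-library fits, counts divided by 4, a replicate block and leaving out each library. The histone genes, gene lists and motifs were chosen with earlier results of these data known. All 10 genes are named, with histone genes called in a comparison, leading genes of each list and the genes nearest in pattern; a few items that this rule or the marker list names are not reported here. With counts in steps of 4, precision is lower in low genes than their counts alone would give.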

Additional observations from a re-analysis of the deposited data

How the results depend on the processing

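The number of histone genes called stayed within 1.5 times the reported count in the 20 alternatives, except as follows. In the SIN3A knockdown against control it was 3, in place of 5, with limma on log2(FPKM + 0.1), and leaving out a library gave 4 to 6. In the SIN3B knockdown against control it was 5, in place of 3, in the fit of the 6 libraries compared, with voom quality weights and without SIN3A knockdown replicate 1, and leaving out a library gave 3 to 5. In the direct comparison leaving out a library gave 9 or 10. Over all genes, limma on log2(FPKM + 0.1) called 1918, 2087 and 2894 genes in the SIN3A, SIN3B and direct comparisons, in place of 3791, 3934 and 4517, and log2(FPKM + 1) called 2461 and 2597 in the first 2. Leaving out a library gave 2597 to 3948, 2601 (without SIN3B knockdown replicate 2) to 4718 and 3313 to 4738 genes. The cause was not tested. The log2 value of HIST1H2BK in the SIN3A knockdown against control was -0.10 to 0.35 when a library was left out, lowest without SIN3A knockdown replicate 1, and that of HIST1H2BD was -0.41 to 0.00169, highest without SIN3A knockdown replicate 2, so both turned sign, though neither was called. All 10 genes were lower in the SIN3A than in the SIN3B knockdown in every alternative. With the replicate number as a block, 5, 3 and 9 histone genes were called, as without it. The labels do not say what a replicate number marks. In deviations from group means, same-numbered libraries of different groups correlated at -0.23 to 0.07 and differently numbered ones at -0.18 to 0.28. With so few libraries per group these values cannot decide whether the numbers pair the libraries. Cluster genes at 1 to 6 CPM are limited by depth, and HIST1H2BK by copies of its sequence.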
